A study of Mus musculus with 7 samples.

Results

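Genes of the cell cycle and of DNA replication were examined in Bmi1-marked cells of the mouse intestinal crypt after 3 diets. The set holds 35 genes of the 37310 in the count table, chosen by symbol, with earlier results of these data known. Of these, 13 are grouped here as genes of S phase, when DNA is copied, 8 of them genes of helicase loading, which takes place in G1. The other 22 are grouped as genes of G2 phase and mitosis, when the copies are separated. The animals carried BmicreERT2 and Rosa26RFP alleles, an inducible Cre recombinase read from the Bmi1 locus and a red fluorescent reporter that Cre switches on, so that marked cells and their descendants are red. All groups share these alleles and received their diet after weaning, up to an age of 3 months. The NWD2 group has 2 libraries, the NWD1 group 3 and the AIN76A group 2. All 3 diets are purified formulations. AIN76A serves as the control. NWD1 models a Western diet, being richer in fat and poorer in calcium, in vitamin D3 and in donors of methyl groups. NWD2 is made like NWD1 except that its calcium and vitamin D3 are brought up again. Strongly red crypt cells that carried Epcam, an epithelial surface protein, and lacked CD45, found on leukocytes, were sorted, and their bulk RNA was sequenced. In bulk samples, fewer dividing cells and less RNA of a gene per cell cannot be told apart. Whether every library stands for a separate animal is not in the labels, so p-values measure the spread between these libraries, which may be technical.

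A dividing cell runs through G1, S, G2 and M phases. In G1 the MCM helicase is loaded onto replication origins by Cdc6 and Cdt1, a step called licensing, and in S phase the forks copy DNA with the clamp Pcna and with deoxynucleotides made by ribonucleotide reductase and thymidylate synthase. In mitosis, Cdk1 with B-type cyclins condenses the chromosomes and builds the spindle, and the anaphase-promoting complex with Cdc20 and Ube2c then degrades the cyclins. S-phase genes are classically driven by E2F factors, and G2 and mitotic genes by B-Myb and Foxm1 through CHR and CCAAT elements. In the intestine, division takes place in the crypt, in stem cells at its base and in the transit-amplifying cells above them, while Bmi1-marked cells have been described as slowly dividing reserve stem cells and as secretory precursors.

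Promoters of 4 members are shown because they hold, in letters, the elements named above for S-phase and mitotic genes. The sequences are from RefSeq on GRCm38.p6, run 5′ to 3′ in the direction of the gene, and cover the 250 bases before the start and 50 bases after it. Capitals mark matches, on either strand, to the CHR letters TTTGAA or TTCGAA, to CCAAT, and to the E2F letters TTTGGCGC, TTTCCCGC, TTTCGCGC or TTTGCCGC. Cdc20 (ENSMUSG00000006398.7) lies at chr4:118437294-118437593 on the minus strand, and Ccnb2 (ENSMUSG00000032218.6) at chr9:70421505-70421804 on the minus strand. Mcm5 (ENSMUSG00000005410.4) lies at chr8:75109259-75109558 on the plus strand, and Mcm6 (ENSMUSG00000026355.4) at chr1:128359656-128359955 on the minus strand. The deposited data were made on the older build mm9, and these positions are those of the RefSeq table.
Cdc20: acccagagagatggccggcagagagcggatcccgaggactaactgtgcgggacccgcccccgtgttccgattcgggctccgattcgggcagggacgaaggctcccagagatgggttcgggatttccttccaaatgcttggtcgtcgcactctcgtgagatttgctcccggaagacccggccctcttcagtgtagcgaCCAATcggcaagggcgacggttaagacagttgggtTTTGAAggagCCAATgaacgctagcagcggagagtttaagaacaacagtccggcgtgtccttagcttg
Ccnb2: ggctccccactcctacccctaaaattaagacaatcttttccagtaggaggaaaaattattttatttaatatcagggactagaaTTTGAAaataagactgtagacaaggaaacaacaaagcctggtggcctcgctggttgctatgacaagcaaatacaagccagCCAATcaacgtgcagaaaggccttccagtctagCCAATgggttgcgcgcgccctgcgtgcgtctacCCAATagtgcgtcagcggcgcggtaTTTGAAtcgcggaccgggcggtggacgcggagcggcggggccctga
Mcm5: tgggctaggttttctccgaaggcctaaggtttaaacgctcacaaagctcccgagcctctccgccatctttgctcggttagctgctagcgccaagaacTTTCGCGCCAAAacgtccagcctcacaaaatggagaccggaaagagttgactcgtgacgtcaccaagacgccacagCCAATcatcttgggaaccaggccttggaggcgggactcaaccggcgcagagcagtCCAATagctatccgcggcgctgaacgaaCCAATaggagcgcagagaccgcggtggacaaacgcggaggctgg
Mcm6: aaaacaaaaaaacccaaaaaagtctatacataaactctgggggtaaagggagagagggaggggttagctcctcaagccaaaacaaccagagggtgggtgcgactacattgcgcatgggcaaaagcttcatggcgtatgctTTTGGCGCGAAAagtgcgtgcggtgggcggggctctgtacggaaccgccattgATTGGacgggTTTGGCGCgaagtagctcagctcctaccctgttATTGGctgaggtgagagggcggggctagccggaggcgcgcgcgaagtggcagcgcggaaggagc
The Cdc20 and Ccnb2 promoters carry CHR and CCAAT matches and no E2F match, whereas those of Mcm5 and Mcm6 carry E2F and CCAAT matches and no CHR match. In Mcm5 and Mcm6, E2F matches on opposite strands overlap and print as 1 run.

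The same split held only in part among the members with a promoter entry, which were 28 of the 35. Of them, 12 were S-phase genes with 13 promoters and 16 were mitotic genes with 16 promoters. A CHR match stood in 13 of 16 mitotic promoters (81.2%) and in 2 of 13 S-phase promoters (15.4%), against 19.2% of all 32851 promoters of the table. A CCAAT match stood in 93.8% of mitotic, 69.2% of S-phase and 37.4% of all promoters. An E2F match stood in 1 mitotic promoter, that of Cdk1 (6.25%), and in 6 S-phase promoters (46.2%), those of Mcm3, Mcm5, Mcm6, Mcm7, Cdc6 and Cdt1, against 2.27% of all. No E2F match stood in the promoters of Pcna, Tyms, Rrm1, Rrm2, Tk1 and Mcm2. These are matches of letters, and the absence of a match says only that these letters are not in the window.

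The libraries held between 14034315 counts (NWD1 replicate 3) and 77959407 counts (NWD2 replicate 2), and the lowest count of any member in any library was 37. All 35 members passed the filter on low counts, among 14626 genes tested. Values are CPM, counts relative to the library total after scaling by the trimmed mean of M-values (TMM). Epcam, for which the cells were sorted, had 838 and 225 CPM on NWD2, 1338, 1182 and 1103 CPM on NWD1, and 510.0 and 986 CPM on AIN76A. Bmi1 itself lay between 2.12 and 5.25 CPM. NWD1 replicate 2 is labelled female and the other 6 libraries male. Both NWD2 libraries and NWD1 replicate 3 carry 1 i5 sequencing index and the other 4 libraries another, so NWD2 and AIN76A are split by index as they are by diet, and both differences cannot be told apart. The deposited table of TPM, a level per transcript length, has no column for NWD1 replicate 3, and it has a column headed as an NWD2 sample that matches no label and was not used. Which diet NWD1 replicate 3 received is therefore less certain than for the other libraries, and it is grouped here by its label. Main values are also given without it.

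Every member was read in every library. Per unit of transcript length, in TPM over 6 libraries, Ube2c, a ubiquitin-conjugating enzyme of the anaphase-promoting complex, had the highest median level at 65.5 TPM, with a range of 21.4 to 71.2 TPM. Next came the cyclin Ccnb2 at 53.4 TPM, Cdc20 at 52.3 TPM and the fork clamp Pcna at 43.4 TPM. The lowest medians were those of the kinetochore protein Cenpf at 1.77 TPM and the licensing factor Cdc6 at 1.62 TPM, the Cdc6 range being 0.73 to 2.85 TPM. S-phase and mitotic genes were interleaved in this order, and the ranges of neighbouring genes overlapped, as the plot of TPM levels shows.

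**Figure D1:**
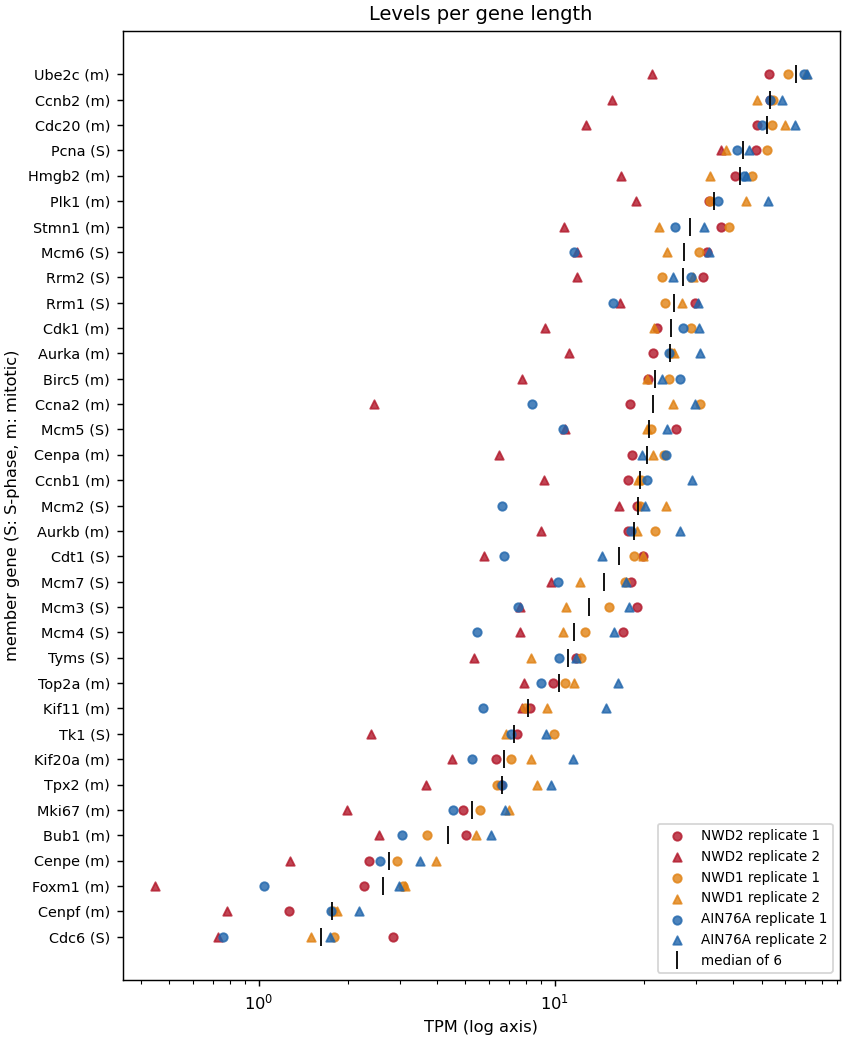
TPM of each member (y axis, ordered by median) on a log x axis, 1 point per library, in the 6 libraries with a TPM column. Levels run between Ube2c, with a median of 65.5 TPM, and Cdc6, with a median of 1.62 TPM.

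Summed over the 22 mitotic members, the level was 683 and 359 CPM on NWD2, 752, 714 and 461 CPM on NWD1, and 842 and 890 CPM on AIN76A. Both AIN76A libraries stood above all 5 others, while NWD2 and NWD1 overlapped. The means were 521 ± 229 CPM on NWD2 (SD, n = 2), 642 ± 158 CPM on NWD1 (SD, n = 3) and 866 ± 33.7 CPM on AIN76A (SD, n = 2). Summed over the 13 S-phase members, the level was 517 and 300 CPM on NWD2, 450.2, 387 and 292 CPM on NWD1, and 351 and 471 CPM on AIN76A, and the 3 diets overlapped. Their means were 408 ± 154 CPM on NWD2 (SD, n = 2), 376 ± 79.6 CPM on NWD1 (SD, n = 3) and 411 ± 85.0 CPM on AIN76A (SD, n = 2). The ratio of the S-phase to the mitotic sum was 0.757 and 0.835 in NWD2, 0.599, 0.542 and 0.633 in NWD1, and 0.417 and 0.530 in AIN76A. On this ratio the diets did not overlap, with NWD2 highest and AIN76A lowest, but NWD1 replicate 2 at 0.542 and AIN76A replicate 2 at 0.530 nearly met. An exact permutation test cannot go below p = 0.333 with 2 against 2 libraries or 0.1 with 3 against 2, so none was made. The 3 libraries with the index of the NWD2 group were also the 3 highest, and within the other index NWD1 replicates 1 and 2 still stood above both AIN76A libraries.

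**Figure D2:**
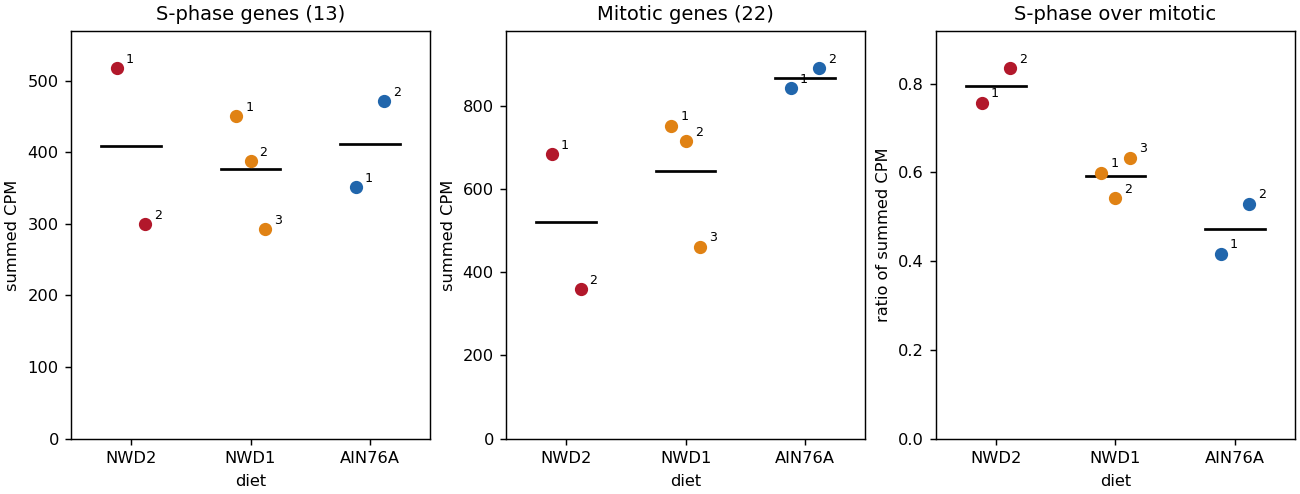
Summed CPM of the 13 S-phase members, of the 22 mitotic members, and the ratio of both sums (y axes) by diet (x axis), with 1 numbered point per replicate and a line at the mean of each diet. The ratio lies between 0.757 and 0.835 in NWD2, 0.542 and 0.633 in NWD1, and 0.417 and 0.530 in AIN76A.

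Libraries of a diet differed widely. NWD2 replicate 2 was the lowest library for 23 of the 35 members, while NWD2 replicate 1 was the highest for 8 and the lowest for none. AIN76A replicate 1 was the highest library for 9 members and the lowest for 6, and AIN76A replicate 2 the highest for 11. NWD1 replicate 3 was the lowest for 6. The plot of members by library shows that NWD2 replicate 2 and NWD1 replicate 3 lay below the mean for most members.

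**Figure D3:**
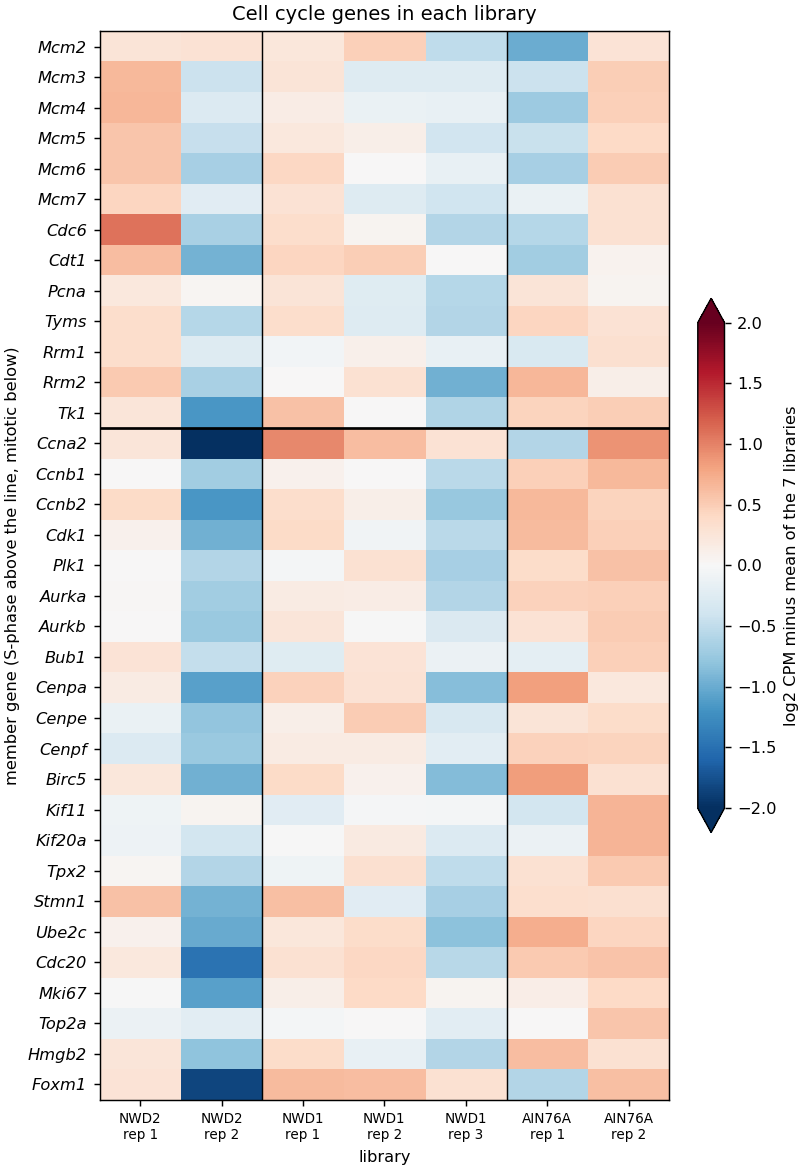
Each member (rows, S-phase genes above mitotic genes) in each of the 7 libraries (columns), coloured by the log2 CPM minus the gene's mean over libraries. NWD2 replicate 2 is low for most members, and AIN76A replicate 1 is low for most MCM genes while high for many mitotic genes.

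Among the licensing genes, Mcm2, a helicase subunit, had 33.5 and 34.1 CPM on NWD2, 32.7, 38.8 and 19.7 CPM on NWD1, and 14.02 and 33.8 CPM on AIN76A. Mcm5, another subunit, had 47.1 and 23.3 CPM on NWD2, 36.9, 34.8 and 24.5 CPM on NWD1, and 23.5 and 41.9 CPM on AIN76A. Cdt1, a loading factor for the helicase, had 22.9 and 7.79 CPM on NWD2, 20.2, 21.1 and 15.1 CPM on NWD1, and 9.27 and 15.8 CPM on AIN76A. For each of the 3 genes the diets overlapped, and AIN76A replicate 1 was far below AIN76A replicate 2. The loading factor Cdc6 had 7.83 and 2.35 CPM on NWD2, 4.70, 3.81 and 2.46 CPM on NWD1, and 2.48 and 4.52 CPM on AIN76A. The helicase subunit Mcm3 had 29.8 and 14.1 CPM on NWD2, 22.8, 15.8 and 15.9 CPM on NWD1, and 14.04 and 26.6 CPM on AIN76A. Its partner Mcm4 had 32.1 and 16.9 CPM on NWD2, 22.6, 18.5 and 18.4 CPM on NWD1, and 12.3 and 28.4 CPM on AIN76A. In all 3, NWD2 replicate 1 was the highest library and NWD2 replicate 2 lay below both NWD1 replicate 1 and AIN76A replicate 2. Of the remaining subunits, Mcm6 averaged 53.4 ± 30.4 CPM on NWD2 (SD, n = 2), 54.7 ± 11.2 CPM on NWD1 (SD, n = 3) and 52.1 ± 28.6 CPM on AIN76A (SD, n = 2). Mcm7 averaged 34.3 ± 11.1 CPM on NWD2 (SD, n = 2), 29.3 ± 7.83 CPM on NWD1 (SD, n = 3) and 33.4 ± 6.996 CPM on AIN76A (SD, n = 2). Neither difference exceeded the spread within a diet.

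Of the genes of the fork and of nucleotide supply, the clamp Pcna had 60.4 and 53.8 CPM on NWD2, 62.5, 44.1 and 35.4 CPM on NWD1, and 62.4 and 54.1 CPM on AIN76A. Tyms, thymidylate synthase, had 37.6 and 19.9 CPM on NWD2, 37.4, 24.6 and 19.7 CPM on NWD1, and 39.6 and 35.9 CPM on AIN76A. Rrm2, the small subunit of ribonucleotide reductase, had 46.04 and 20.3 CPM on NWD2, 31.9, 39.3 and 16.4 CPM on NWD1, and 50.4 and 34.7 CPM on AIN76A. In these 3 genes AIN76A replicate 1 stood within the 2 highest libraries, whereas for Rrm1 it was the lowest of all 7, as it was for several MCM genes. Rrm1, the large subunit of the reductase, had 62.4 and 40.96 CPM on NWD2, 47.1, 52.1 and 43.8 CPM on NWD1, and 39.4 and 60.6 CPM on AIN76A. Tk1, thymidine kinase, averaged 14.01 ± 9.004 CPM on NWD2 (SD, n = 2), 18.1 ± 7.32 CPM on NWD1 (SD, n = 3) and 23.7 ± 0.617 CPM on AIN76A (SD, n = 2), and it was the only S-phase member whose NWD2 libraries both lay below both AIN76A libraries. Summed over Tyms, Rrm1, Rrm2 and Tk1, the level was 166 and 88.9 CPM on NWD2, 142, 133 and 91.2 CPM on NWD1, and 153 and 155 CPM on AIN76A.

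Among the cyclins and mitotic kinases, Ccnb1, the B-type cyclin of Cdk1, had 39.2 and 23.9 CPM on NWD2, 41.3, 39.1 and 26.7 CPM on NWD1, and 54.2 and 60.96 CPM on AIN76A. Cdk1, the kinase of mitotic entry, had 40.2 and 19.6 CPM on NWD2, 49.6, 36.02 and 26.2 CPM on NWD1, and 58.8 and 52.8 CPM on AIN76A. Plk1, the polo-like kinase of spindle and centrosome, had 38.4 and 25.5 CPM on NWD2, 36.9, 47.3 and 24.1 CPM on NWD1, and 49.3 and 57.5 CPM on AIN76A. For all 3, both AIN76A libraries were above the other 5. The aurora kinases Aurka and Aurkb had the same order of groups, with Aurka at 22.98 ± 7.90 CPM on NWD2 (SD, n = 2), 26.96 ± 7.25 CPM on NWD1 (SD, n = 3) and 38.9 ± 0.198 CPM on AIN76A (SD, n = 2). Ccna2, a cyclin of S phase and mitotic entry counted here with the mitotic genes, had 33.1 and 5.28 CPM on NWD2, 54.2, 42.6 and 33.99 CPM on NWD1, and 18.5 and 51.9 CPM on AIN76A. It varied 10.3-fold between its highest and lowest library, the most of all members, and AIN76A replicate 1 was its second lowest library.

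Of the centromere and anaphase genes, Cenpf, a kinetochore protein, had 7.54 and 5.45 CPM on NWD2, 10.1, 10.1 and 7.83 CPM on NWD1, and 12.5 and 12.4 CPM on AIN76A, and the 3 diets did not overlap. Birc5, the survivin subunit of the chromosomal passenger complex, had 37.2 and 16.3 CPM on NWD2, 41.4, 33.8 and 17.5 CPM on NWD1, and 56.8 and 39.2 CPM on AIN76A. Cdc20, the activator of the anaphase-promoting complex, had 47.4 and 14.7 CPM on NWD2, 50.6, 54.4 and 27.9 CPM on NWD1, and 58.9 and 60.5 CPM on AIN76A. Both AIN76A libraries were above the others for Cdc20, and for Birc5 NWD1 replicate 1 stood between them. Ube2c had 72.6 and 34.2 CPM on NWD2, 79.8, 88.8 and 38.6 CPM on NWD1, and 113 and 92.3 CPM on AIN76A. Here again AIN76A stood above the other 5 libraries. The levels of Bub1, a checkpoint kinase, and of the motor protein Kif11 overlapped between diets, and Kif11 averaged 22 ± 1.49 CPM on NWD2 (SD, n = 2), 20.9 ± 1.59 CPM on NWD1 (SD, n = 3) and 26.5 ± 13.05 CPM on AIN76A (SD, n = 2).

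Of the chromatin and regulator genes, Mki67, which coats mitotic chromosomes and is the source of the Ki-67 antigen, had 25.9 and 12.3 CPM on NWD2, 28.2, 34.1 and 26.9 CPM on NWD1, and 28.5 and 34.1 CPM on AIN76A. Top2a, the topoisomerase that untangles sister chromatids, had 46.9 and 43.9 CPM on NWD2, 49, 50.9 and 43.8 CPM on NWD1, and 50.99 and 74.3 CPM on AIN76A. Foxm1, a transcription factor of G2 genes, had 6.53 and 1.51 CPM on NWD2, 8.42, 8.27 and 6.64 CPM on NWD1, and 3.60 and 8.17 CPM on AIN76A. Mki67 was lowest in the NWD2 libraries, and Top2a differed little apart from AIN76A replicate 2, while Foxm1 was lowest in NWD2 replicate 2 and AIN76A replicate 1. The chromatin protein Hmgb2 averaged 42.6 ± 20.98 CPM on NWD2 (SD, n = 2), 46.1 ± 15.3 CPM on NWD1 (SD, n = 3) and 66.7 ± 10.02 CPM on AIN76A (SD, n = 2).

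NWD2 was set against AIN76A to ask how the Western-style diet with raised calcium and vitamin D3 differed from the control diet. All 22 mitotic members were lower in NWD2, with a median log2 fold change of -0.74 and a range of -0.94 to -0.23, against a median of -0.03 over all tested genes. All 8 licensing genes were higher in NWD2, with a median of 0.19, and 9 of the 13 S-phase members were higher, with a median of 0.05, whereas with scaling by library size alone 6 of the 8 and 6 of the 13 were higher and the S-phase median was -0.05. That scaling moved the median of all genes by -0.12 and left all 22 mitotic members lower. Without NWD2 replicate 2, 19 of 22 mitotic members were lower, and without AIN76A replicate 2, 18 of 22 were. The direction of the S-phase genes rested on single libraries: without NWD2 replicate 1, 1 of 8 licensing and 1 of 13 S-phase members were higher, with an S-phase median of -0.57, and without AIN76A replicate 1, 1 of 8 and 2 of 13 were, with a median of -0.21. No single member passed the test: at a Benjamini-Hochberg adjusted p under 0.05, edgeR's quasi-likelihood test called 0 of 35 members and 0.0% of all 14626 genes. At an unadjusted p under 0.05, edgeR had 172 higher genes (1.18%) with no member among them and 388 lower genes (2.65%) with 2 members, Ccnb1 and Cenpf, among them. DESeq2 called 52 genes (0.356%), none of them members. Both NWD2 libraries lay below both AIN76A libraries for 16 of 22 mitotic members and 1 of 13 S-phase members, together 48.6% of members, where 13.2% of all tested genes did so. No member was above without overlap, as 13.2% of all genes were.

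The lowest fold changes were those of Ube2c at -0.94 ± 0.46 (SE), Cdc20 at -0.94 ± 0.51 (SE) and Cenpf at -0.94 ± 0.33 (SE) on the log2 scale. Those of Cdk1 and Ccnb1 were -0.90 ± 0.41 (SE) and -0.87 ± 0.34 (SE). The highest were those of Cdc6 at 0.54 ± 0.60 (SE), Mcm2 at 0.50 ± 0.45 (SE) and Cdt1 at 0.29 ± 0.49 (SE). The edgeR adjusted p was 0.996 for each of these 8 genes. The S-phase median lay 0.79 above the mitotic median on the log2 scale. It lay 0.58 above it without AIN76A replicate 1, 1.24 above it without AIN76A replicate 2, and 0.57 above it with the sequencing index as a term, a fit in which the index is told from diet through the NWD1 libraries, of which replicate 3 alone carries the index of NWD2. The mitotic median was -0.38 without NWD2 replicate 2, -1.31 without NWD2 replicate 1 and -0.08 with the index as a term, which also turned the median of all members to 0.18. Leaving out a library can keep or raise the count of mitotic members below AIN76A but cannot lower it. This count was 16 of 22 without NWD2 replicate 2, where 26.1% of all genes were below. Without NWD2 replicate 1 it was 21 of 22, where 39.3% were.

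NWD1 was set against AIN76A to ask how the Western-style diet itself differed from the control diet. Of the mitotic members, 20 of 22 were lower in NWD1, with a median log2 fold change of -0.42, and Foxm1 and Ccna2 were higher. Of the S-phase members, 9 of 13 were lower, with a median of -0.07, but 6 of 13 with a median of 0.03 when scaled by library size alone, which moved the median of all genes by 0.11. The S-phase median was -0.39 without AIN76A replicate 1 and 0.37 without AIN76A replicate 2. Without AIN76A replicate 2, 16 of 22 mitotic members were lower, with a median of -0.38. With all libraries kept, the median over all tested genes was 0.01. Again edgeR called 0 of 35 members and 0.0% of genes at an adjusted p under 0.05. At an unadjusted p under 0.05 it had 369 higher genes (2.52%) with no member among them and 131 lower genes (0.896%) with 1 member, Ccnb1, among them. DESeq2 called 1 gene (0.00684%), not a member. All 3 NWD1 libraries lay below both AIN76A libraries for 10 of 22 mitotic members and 0 of 13 S-phase members, together 28.6% of members, against 8.61% of all tested genes, and no member was above without overlap, against 11.4%.

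The lowest fold changes were those of Ccnb1 at -0.69 ± 0.30 (SE), Birc5 at -0.63 ± 0.44 (SE) and Cdk1 at -0.58 ± 0.36 (SE) on the log2 scale. The highest were those of Cdt1 at 0.59 ± 0.46 (SE), Foxm1 at 0.41 ± 0.58 (SE) and Mcm2 at 0.35 ± 0.41 (SE). The S-phase median lay 0.35 above the mitotic median. This difference rested on 1 library, since it was 0.07 without AIN76A replicate 1 and 0.75 without AIN76A replicate 2. Without NWD1 replicate 3 it was 0.28, and the mitotic median was -0.29.

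NWD2 was set against NWD1, which share the Western-style base, to ask what raised calcium and vitamin D3 changed. Of the mitotic members, 20 of 22 were lower in NWD2, with a median log2 fold change of -0.22, and 10 of 13 S-phase members were higher, with a median of 0.15, against 0.05 over all tested genes. Scaled by library size alone, which moved the median of all genes by -0.24, all 22 mitotic members were lower and 6 of 13 S-phase members were higher, with an S-phase median of -0.05. Without NWD2 replicate 1, 2 of 13 S-phase members were higher, with a median of -0.48, and without NWD1 replicate 3, 6 of 13 were, with a median of -0.02. By edgeR, 0 of 35 members and 0.0% of genes had an adjusted p under 0.05. At an unadjusted p under 0.05 there were 167 higher genes (1.14%) and 987 lower genes (6.75%), none of them members. DESeq2 called 180 genes (1.23%) and no member. Both NWD2 libraries lay below all 3 NWD1 libraries for 4 members, Ccna2, Cenpf, Mki67 and Foxm1, which is 11.4% of members, near the 14.5% of all tested genes, and no member was above, against 10.8%.

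The lowest fold changes were those of Ccna2 at -1.19 ± 0.69 (SE), Foxm1 at -0.95 ± 0.59 (SE) and Mki67 at -0.64 ± 0.34 (SE) on the log2 scale. The highest were those of Cdc6 at 0.47 ± 0.54 (SE), Mcm4 at 0.30 ± 0.40 (SE) and Mcm3 at 0.27 ± 0.40 (SE). The S-phase median lay 0.37 above the mitotic median, 0.42 without NWD1 replicate 3. The mitotic median changed sign with NWD2 replicate 2, being 0.09 without it and -0.89 without NWD2 replicate 1, and it was 0.17 with the sequencing index as a term. The count of mitotic members below NWD1, which leaving out a library cannot lower, was 19 of 22 without NWD2 replicate 1. There, 30.6% of all tested genes were below. Without NWD1 replicate 3 the count was 11 of 22, where 20.6% were. The comparisons share libraries, so their fold changes are not independent of each other.

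**Figure D4:**
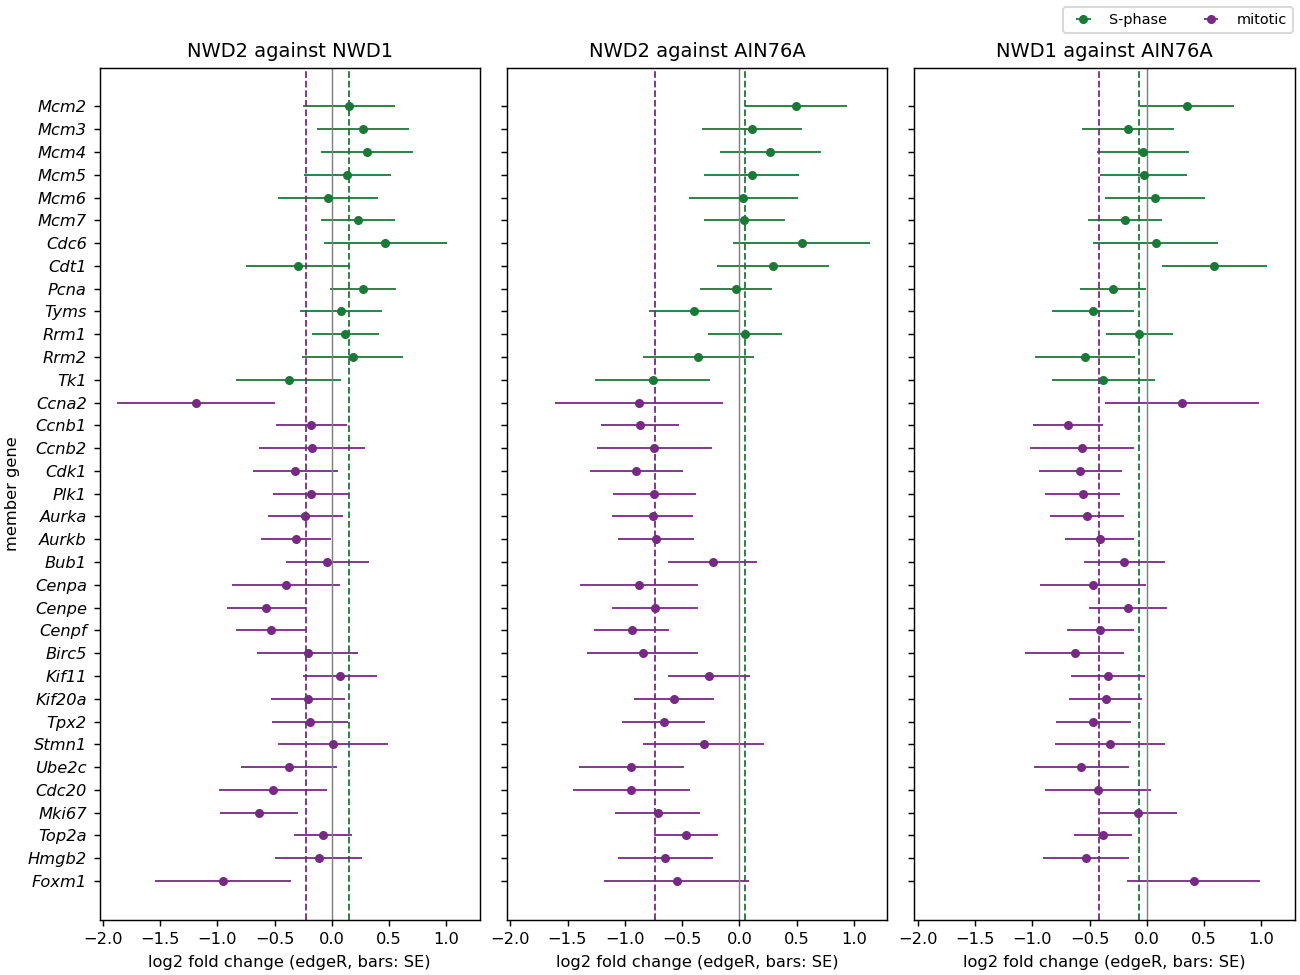
Log2 fold change of each member (y axis) in each comparison (panels, x axis), with bars of 1 SE from edgeR, S-phase genes in green and mitotic genes in purple, and dashed lines at the median of each kind. The S-phase median lies right of the mitotic median in each panel, by 0.37, 0.79 and 0.35.

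Other genes of the same processes, from lists without the members, were read alongside. Of 41 further mitotic genes tested, all 41 were lower in NWD2 than in AIN76A, with a median log2 fold change of -0.56, and both NWD2 libraries lay below both AIN76A libraries for 19 (46.3%), where 13.2% of all tested genes did so. In NWD1 against AIN76A, 40 of 41 were lower, with a median of -0.40, and in NWD2 against NWD1, 36 were lower, with a median of -0.20. The counts against AIN76A fell without AIN76A replicate 2. Then 24 of 41 were lower in NWD1, with a median of -0.17, and 34 of 41 in NWD2, with a median of -0.34. Without NWD2 replicate 2, 27 of 41 were higher in NWD2 than in NWD1, with a median of 0.09. Of 34 further replication genes, such as polymerase and GINS subunits, 27 were lower in NWD2 than in AIN76A, with a median of -0.14. Their direction there rested on single libraries. Without NWD2 replicate 2, 25 were higher (median 0.14), without AIN76A replicate 2, 18 were higher (0.05), and without NWD2 replicate 1, 33 were lower (-0.81). In NWD1, 27 of the 34 were lower than in AIN76A, with a median of -0.20, and 20 with a median of -0.10 when scaled by library size alone. In NWD2 against NWD1, 20 of the 34 were higher, with a median of 0.04, and 6 of 34 with a median of -0.16 when scaled by library size alone. None of these genes passed edgeR's test, and the smallest unadjusted p among the further mitotic genes in NWD2 against AIN76A was that of the kinesin Kif2c, with a log2 fold change of -0.85 ± 0.38 (SE). The ratio of both sums was 0.835 and 0.939 in NWD2, 0.807, 0.639 and 0.768 in NWD1, and 0.679 and 0.596 in AIN76A, so that NWD2 stood above the rest while NWD1 and AIN76A overlapped.

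Markers of cell types also differed between the groups. Of 9 enteroendocrine markers, all 9 were lower in NWD2 than in AIN76A, and their summed level was 457 and 649 CPM on NWD2, 1817, 1975 and 1687 CPM on NWD1, and 1790 and 2223 CPM on AIN76A. The 8 enterocyte markers summed to 36212 and 71685 CPM on NWD2, 35140, 50386 and 32362 CPM on NWD1, and 32420 and 36270 CPM on AIN76A. The library with the highest enterocyte level, NWD2 replicate 2, was the lowest for most members. NWD1 replicate 3, with the next lowest sum over all members at 753 CPM, had the lowest enterocyte sum, 32362 CPM, close to AIN76A replicate 1. The sums weigh abundant genes most. As a median over the 8 markers of the log2 deviation from each gene's mean over the 7 libraries, NWD1 replicate 3 stood at -0.18. On that measure AIN76A replicate 1 was lowest at -0.50, and NWD1 replicate 1 at -0.43 and NWD2 replicate 1 at -0.27 were also lower. The 5 crypt base markers summed to 1144 and 432 CPM on NWD2, 910.4, 329 and 438 CPM on NWD1, and 348 and 820.0 CPM on AIN76A. AIN76A replicate 1, low for most MCM genes, was also low here. NWD1 replicate 2 had a still lower sum, at 329 CPM. Its licensing genes summed to 209.7 CPM against 135.8 CPM in AIN76A replicate 1. By the median log2 deviation, however, the crypt base markers were lowest in AIN76A replicate 1, at -0.75, and stood at -0.03 in NWD1 replicate 2. The licensing genes stood at -0.61 and 0.03 in these 2 libraries. The 9 leukocyte markers, none at 0 in all libraries, summed to between 8.56 and 12.7 CPM on NWD2, 8.09 and 24.2 CPM on NWD1, and 4.35 and 6.19 CPM on AIN76A. The 5 Paneth cell markers summed to 6790.3 and 12879 CPM on NWD2, 11979.8, 8101 and 13044 CPM on NWD1, and 23149.5 and 16258 CPM on AIN76A, where both libraries were highest. The 5 tuft cell markers summed to 38.6 and 50.6 CPM on NWD2, 175, 76.98 and 136 CPM on NWD1, and 143 and 101 CPM on AIN76A. The 6 stromal markers, of which 1 was at 0 in all libraries, summed to at most 0.724 CPM on NWD2, 0.664 CPM on NWD1 and 0.605 CPM on AIN76A. The 5 goblet cell markers summed to 3761 and 6093 CPM on NWD2, 2649, 3714 and 5256 CPM on NWD1, and 9629 and 4780.1 CPM on AIN76A. All 5 goblet markers were lower in NWD1 than in AIN76A, with a median log2 fold change of -0.45, and 3 of 5 were lower in NWD2 than in AIN76A. The part of these markers in the results was not tested. Short transcripts were over-represented in AIN76A replicate 1, where the 2929 genes of shortest transcripts had a median log2 deviation of 0.42 and the 2924 of longest transcripts -0.24, whereas NWD1 replicate 3 had -0.33 and 0.21. The median relative log2 transcript length was 0.11 for the S-phase and 0.06 for the mitotic members. With an offset for transcript length, added after the data were seen, the S-phase median lay 0.76 above the mitotic median in NWD2 against AIN76A. It lay 0.32 above in NWD1 against AIN76A and 0.41 in NWD2 against NWD1. The part of transcript length in the results was not tested.

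**Figure D5:**
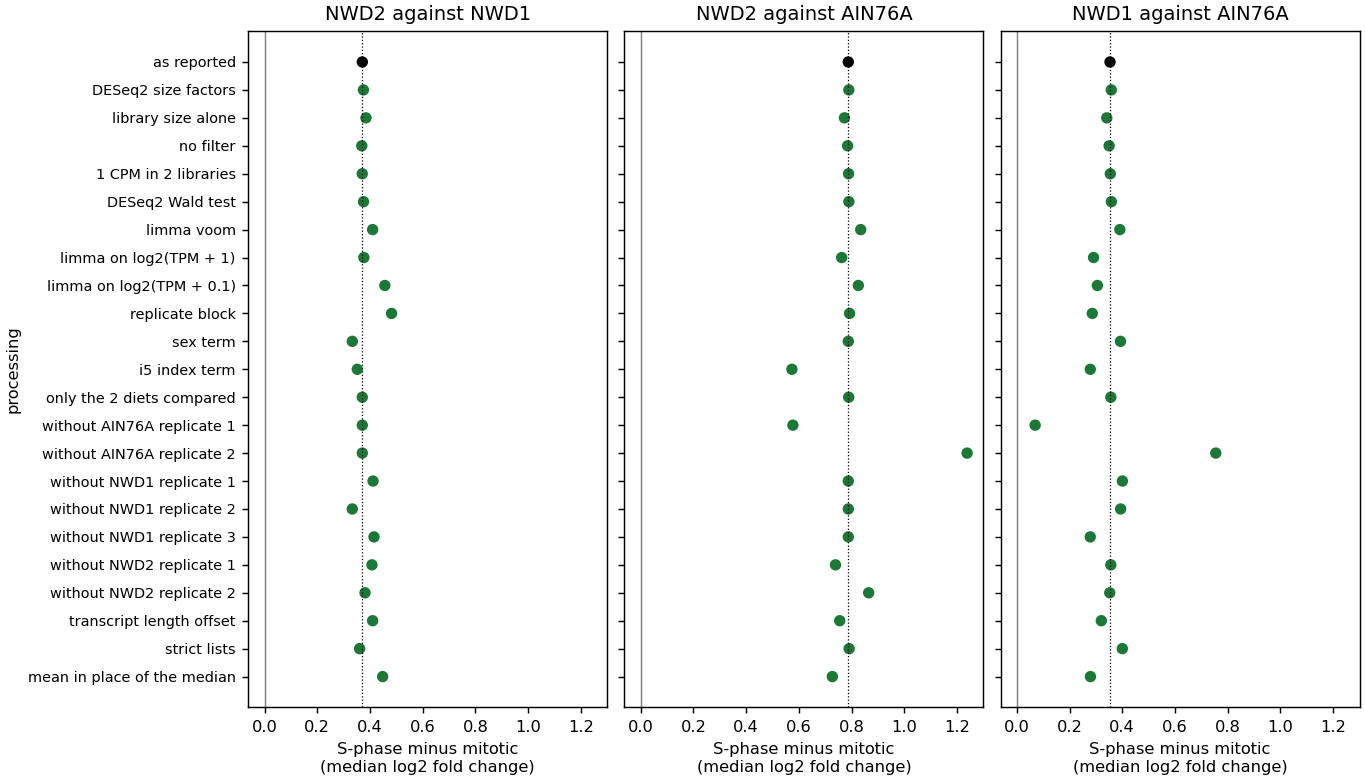
S-phase minus mitotic median log2 fold change (x axis) in each comparison under each alternative way of processing (y axis). The difference stayed above 0 throughout, between 0.57 and 1.24 in NWD2 against AIN76A, 0.07 and 0.75 in NWD1 against AIN76A, and 0.33 and 0.48 in NWD2 against NWD1.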

How the data were processed

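Bulk RNA-seq of 7 libraries was re-examined. The labels' protocols name SMART-Seq v4 amplification and paired-end Nextera XT libraries, a preparation without strand marking. The authors deposited whole-number counts for Ensembl genes, and the deposited TPM values, used for levels and as an alternative, cover 6 samples; 1 TPM column matched no sample and was not used. Per the submitters' processing notes, the tools were STAR 2.4.2a, HTSeq 0.6.1 and edgeR, on mm9, with no roles given; the annotation and strand setting are not given in the sources used here.

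Counts were tested with edgeR 4.0.16 (R 4.3.3): TMM scaling, filterByExpr on diet, robust quasi-likelihood F test, 1 fit of all 7 samples with diet as the only term and 4 residual degrees of freedom. This kept 14626 genes, with a biological coefficient of variation of 0.363. A gene was called at a Benjamini-Hochberg adjusted p under 0.05 over all tested genes. Depth ran from 14034315 to 77959407 counts. Motifs were searched in RefSeq promoters of GRCm38.p6.

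The members and lists were chosen with earlier results of these data known. Of 173 listed symbols outside the members, 172 matched. Genes were named by a fixed set and as the 3 members with the highest and the 3 with the lowest log2 fold change per comparison, and for other lists by the smallest p in each direction. Genes alike in pattern were the 5 of highest Pearson correlation with the members' mean, and a mean log2 CPM not under 3. Alternatives were DESeq2 1.42.0 and its size factors, library size alone, no filter or 1 CPM in 2 libraries, limma 3.58.1 voom, limma on log2(TPM + 1) and log2(TPM + 0.1), a term for i5 index, sex or replicate number, fits of just the 2 diets at issue, a looser adjusted p of 0.1, each library left out, narrower member lists and the mean for the median. A transcript length offset, and counts of members below without overlap and of members higher or lower, with each library left out, were added after the data were seen.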

Additional observations from a re-analysis of the deposited data

How the results depend on the processing

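No member was called under any alternative run, and the S-phase minus mitotic median kept its sign throughout: 0.57 to 1.24 in NWD2 against AIN76A, 0.069 to 0.75 in NWD1 against AIN76A and 0.33 to 0.48 in NWD2 against NWD1. Leaving out 1 library gave the ends 0.58 and 1.24 in NWD2 against AIN76A, and 0.069 and 0.75 in NWD1 against AIN76A. Of 940 recomputed fold changes of named members, 81 had the other sign and 0 were called. With each library left out, the median over all members was -1.11 to -0.21 in NWD2 against AIN76A, -0.45 to -0.17 in NWD1 against AIN76A and -0.68 to 0.14 in NWD2 against NWD1. The S-phase median was -0.57 to 0.60, -0.39 to 0.37 and -0.48 to 0.47 in those comparisons, and the mitotic median -1.31 to -0.38, -0.54 to -0.29 and -0.89 to 0.089. The count of mitotic members below without overlap was 16 to 21 in NWD2 against AIN76A and 10 to 15 in NWD1 against AIN76A. It was 4 to 19 in NWD2 against NWD1. Leaving out a library can keep or raise this count but cannot lower it, so the low ends are no sign of stability. The share of all tested genes below reached 39.3%, 30.8% and 30.6%. The i5 index term gave a median over all members of 0.18 in NWD2 against AIN76A and 0.31 in NWD2 against NWD1, and a mitotic median of -0.082 in NWD2 against AIN76A and 0.17 in NWD2 against NWD1. The mitotic median of NWD2 against NWD1 was -0.65 with log2(TPM + 1) and -0.74 with log2(TPM + 0.1). The cause was not tested.

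Genes called among all tested, 0 in each comparison by edgeR, depended on the tool. For NWD2 against AIN76A, NWD1 against AIN76A and NWD2 against NWD1, there were 190, 85 and 384 with no filter, and 52, 1 and 180 by DESeq2. Otherwise 6 were called with only the diets compared and 1 with the i5 term in NWD2 against AIN76A, 1 with log2(TPM + 1) and 2 with log2(TPM + 0.1) in NWD1 against AIN76A, and 2 with the i5 term and 1 with log2(TPM + 1) in NWD2 against NWD1. Leaving out 1 library gave 0 to 1 in NWD2 against NWD1. The shallowest library held 14034315 counts, the lowest member count was 37, and each diet had 2 or 3 libraries.

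The labels share replicate numbers across diets. Deviations of same-numbered libraries from their diet means correlated at 0.064 and 0.064 between NWD2 and AIN76A. With 2 libraries in each of these diets, both values are equal by construction and count as 1. The correlations were 0.177 and 0 between NWD1 and AIN76A, and 0.261 and 0.122 between NWD2 and NWD1. The numbers were not taken to pair the samples. With the replicate block, the S-phase minus mitotic median was 0.79, 0.29 and 0.48 in these comparisons, 1, 0 and 0 genes were called, and no member was.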

Other observations

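Of 22 genes of G1 phase and the Rb-E2F pathway, 10 were higher in NWD2 than in AIN76A, with a median log2 fold change of -0.09. Without NWD2 replicate 2, 19 were higher (median 0.31), without AIN76A replicate 2, 18 were higher (0.29), and without NWD2 replicate 1, 15 were lower (-0.50). In NWD1, 16 were higher than in AIN76A, with a median of 0.20. In NWD2, 16 were lower than in NWD1, with a median of -0.18, but 13 were higher, with a median of 0.05, without NWD2 replicate 2. None passed edgeR's test. Ccne2, an E-type cyclin of S-phase entry, had 9.66 and 13.5 CPM on NWD2, 6.29, 14.3 and 3.25 CPM on NWD1, and 3.58 and 5.15 CPM on AIN76A, a log2 fold change of 1.41 ± 0.60 (SE) in NWD2 against AIN76A with an edgeR adjusted p of 0.996. The proto-oncogene Myc had 31.4 and 7.74 CPM on NWD2, 22.5, 15.3 and 12.9 CPM on NWD1, and 12.3 and 22.1 CPM on AIN76A, so that the diets overlapped. Ccnd1, a D-type cyclin, had 14.1 and 7.05 CPM on NWD2, 9.002, 7.01 and 6.37 CPM on NWD1, and 10.6 and 8.73 CPM on AIN76A. Ccne1, E2f1 and Mybl2 stayed below 5 CPM, with log2 fold changes in NWD2 against AIN76A of -0.19 ± 0.82, -0.11 ± 0.51 and -0.26 ± 0.70 (SE).

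Of 11 inhibitors tested, 8 were lower in NWD2 than in NWD1, with a median of -0.54, and 8 were lower in NWD2 than in AIN76A, with a median of -0.17. The antiproliferative gene Tob1 had 71.7 and 40.5 CPM on NWD2, 152, 221 and 139 CPM on NWD1, and 54.9 and 122 CPM on AIN76A, a log2 fold change of -1.60 ± 0.42 (SE) in NWD2 against NWD1 with an edgeR adjusted p of 0.496, and it was the only inhibitor that DESeq2 called there, with an adjusted p of 0.0219. Ccng1, a p53 target, went the other way, with 96.0 and 142 CPM on NWD2, 55.7, 61.4 and 77.7 CPM on NWD1, and 68.9 and 94.0 CPM on AIN76A, a log2 fold change of 0.88 ± 0.29 (SE) in NWD2 against NWD1 with an edgeR adjusted p of 0.532. The inhibitor Cdkn1a, also a p53 target, had 309 and 328 CPM on NWD2, 231, 352 and 244 CPM on NWD1, and 413 and 273 CPM on AIN76A, and Cdkn1b stayed between 4.25 and 7.80 CPM. Cdkn1c was low, with 1.21 and 0.660 CPM on NWD2, 4.18, 2.16 and 2.92 CPM on NWD1, and 1.12 and 2.64 CPM on AIN76A.

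Outside the lists, the genes most like the members' mean over the 7 libraries, among 7808 candidates, were Atp13a3 (Pearson r 0.978), Shcbp1 (0.972), Vrk1 (0.966), D2Ertd750e (0.958) and Isyna1 (0.958). The values share libraries and are a description.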
